A study of Homo sapiens with 6 samples.

Results

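The interferon regulatory factor (IRF) genes are the subject of what follows, with the DEK peaks that lay in and around them in U937 cells. The members were IRF1, IRF2, IRF3, IRF4, IRF5, IRF7, IRF8 and IRF9, 8 of the 20163 protein-coding genes of the annotation (GENCODE release 44 on GRCh37, the same assembly as hg19). A peak was counted for a gene if it overlapped the gene body extended by 20 kb on each side. For IRF8 a longer region of 200 kb was taken instead, from 82.7 kb upstream to 93.8 kb downstream of the gene. By this rule 16 of the 15017 peaks of DEK replicate 1 and 88 of the 152779 peaks of DEK replicate 2 belonged to the 8 genes. A shared interval, the stretch that a peak of each replicate has in common (at least 1 bp), was found 7 times among 4453 in the genome.

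IRF proteins are transcription factors that share a DNA-binding domain and recognise GAAA-type elements in the control regions of interferon genes and of genes that respond to interferon. IRF3 and IRF7 switch on the type I interferon genes after a virus is sensed, and IRF9 is the DNA-binding part of the complex that carries the type I interferon signal to the nucleus. IRF8 is needed for the formation of monocytes and dendritic cells, where it binds composite sites together with the ETS factor PU.1.

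U937 is a human monocyte-like line derived from a histiocytic lymphoma. According to the labels the cells were kept in RPMI 1640 medium with 10% fetal bovine serum and crosslinked with 1% formaldehyde for 15 min, with no other treatment given and no second condition. The 6 samples of the series were 2 precipitations with a DEK antibody, 2 with an antibody to H3K4me3 (a histone mark of active start sites) and 2 of non-precipitated chromatin. DEK is an abundant chromatin protein that alters the supercoiling of DNA. The lists give positions of enriched chromatin and hold no expression, so neither the RNA of any IRF gene nor a marker of the myeloid line could be checked.

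Both DEK lists were called separately from one another and differ 10.2 times in length. Replicate 1 had a false discovery rate of 100% for every peak, and each shared interval rests on such a peak. The replicate 1 peaks held 988363 tags (sequenced fragments counted in a peak) against 4172422 in replicate 2. The methods of the study set a lower limit for the reads of a sample, but the depth of each library is not in the lists, which give only tags in peaks. The H3K4me3 lists held 47523 intervals in replicate 1 and 29335 in replicate 2. Everything given below for DEK is a count or a value in each of 2 precipitations, which the study describes as independent experiments, so no SD was given and nothing was tested. A longer list meets more genes, and therefore each count is set beside the share of all genes or of all peaks that met the same criterion.

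The sequences under the summits (the base with most tags) of the peaks to which the results below return are shown first, read from the plus strand of GRCh37. Each holds the 300 bases around the summit of a replicate 1 peak. Capitals mark GAGGAA, the core that PU.1 recognises, or an ETS-IRF composite element (GGAA and, after any 2 bases, GAAA), on either strand. For IRF5 only 30 bases are printed, because the rest of the window reaches an untranslated exon.
IRF1 intron, shared, chr5:131802136-131802435: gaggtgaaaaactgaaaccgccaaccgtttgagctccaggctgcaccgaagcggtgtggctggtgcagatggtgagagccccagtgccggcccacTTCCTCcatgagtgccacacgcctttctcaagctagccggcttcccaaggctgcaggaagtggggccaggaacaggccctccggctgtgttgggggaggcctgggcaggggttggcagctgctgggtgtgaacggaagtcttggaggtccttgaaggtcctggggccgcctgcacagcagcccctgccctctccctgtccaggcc
IRF1 intron, replicate 1 alone, chr5:131815337-131815636: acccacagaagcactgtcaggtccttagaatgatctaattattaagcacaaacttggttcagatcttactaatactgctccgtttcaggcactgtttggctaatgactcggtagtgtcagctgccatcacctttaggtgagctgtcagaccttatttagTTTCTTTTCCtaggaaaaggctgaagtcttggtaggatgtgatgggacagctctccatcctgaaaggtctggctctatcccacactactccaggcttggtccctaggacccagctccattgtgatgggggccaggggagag
IRF5 start sites, shared, chr7:128580681-128580710: gtctagccacTTTCGTTTCCcctggggccg
IRF8 upstream, shared, chr16:85863277-85863576: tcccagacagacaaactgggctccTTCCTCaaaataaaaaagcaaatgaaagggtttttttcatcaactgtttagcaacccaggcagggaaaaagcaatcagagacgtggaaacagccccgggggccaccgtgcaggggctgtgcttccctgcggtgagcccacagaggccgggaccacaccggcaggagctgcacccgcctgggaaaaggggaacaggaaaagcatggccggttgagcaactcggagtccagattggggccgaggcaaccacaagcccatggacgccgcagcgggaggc
IRF8 downstream, replicate 1 alone at these bases, chr16:85962046-85962345: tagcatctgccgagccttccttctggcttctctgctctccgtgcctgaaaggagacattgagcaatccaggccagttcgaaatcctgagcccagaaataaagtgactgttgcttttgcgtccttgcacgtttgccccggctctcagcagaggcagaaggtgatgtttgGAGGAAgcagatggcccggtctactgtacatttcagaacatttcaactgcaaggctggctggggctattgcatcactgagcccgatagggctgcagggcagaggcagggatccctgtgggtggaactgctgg
IRF8 farther downstream, replicate 1 alone at these bases, chr16:85969795-85970094: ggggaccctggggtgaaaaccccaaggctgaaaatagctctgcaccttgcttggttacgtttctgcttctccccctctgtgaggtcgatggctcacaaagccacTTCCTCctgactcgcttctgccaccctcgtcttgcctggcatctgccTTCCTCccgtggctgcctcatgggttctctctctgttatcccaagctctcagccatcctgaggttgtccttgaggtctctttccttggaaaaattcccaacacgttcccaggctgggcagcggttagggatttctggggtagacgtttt
The IRF5 and the second IRF1 sequence each carry 1 composite element and no GAGGAA. The IRF8 sequences printed here carry GAGGAA only, the last one 2 copies of it. The window of the remaining replicate 1 peak of IRF8, 85886131-85888788, is not printed and holds neither element. Both downstream IRF8 windows come from replicate 1 peaks that overlap replicate 2 peaks elsewhere, and they lie outside the shared intervals themselves.

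In replicate 1, 4 of the 8 genes (IRF1, IRF2, IRF5 and IRF8) had at least 1 peak in their window, while 38.8% of all protein-coding genes did in windows built in the same way with 20 kb on each side. In replicate 2 all 8 genes had one, against a background of 93.8%. Shared intervals lay in the windows of 3 genes, IRF1, IRF5 and IRF8, against 19.1% of all protein-coding genes. The windows are not equally long, from 43.4 kb at IRF7 to 200 kb at IRF8, and counts were therefore also given per 100 kb. With 20 kb on each side in place of the longer region, IRF8 had 2 peaks in replicate 1, 6 in replicate 2 and 3 shared intervals.

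**Figure D1:**
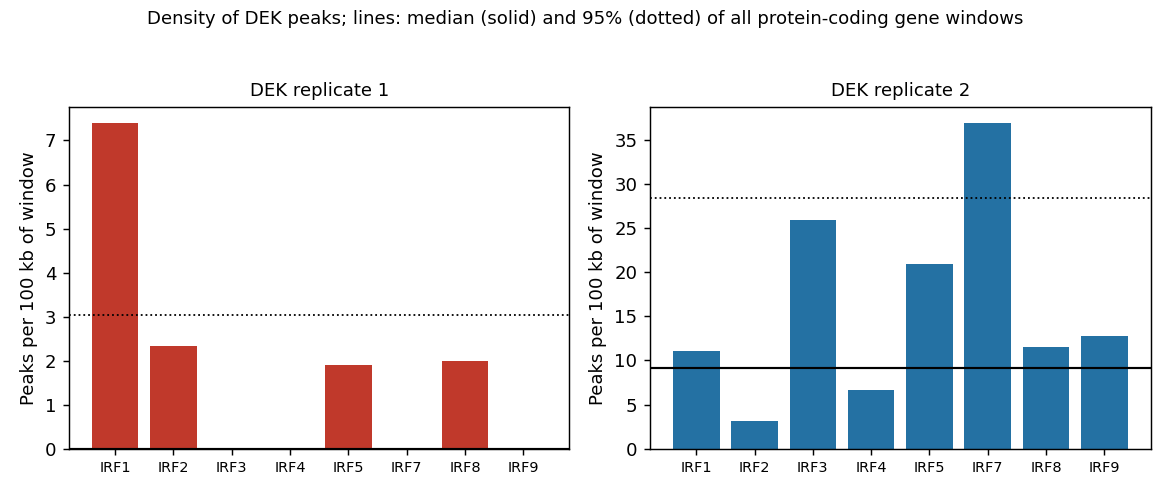
Number of DEK peaks per 100 kb of window for each IRF gene in replicate 1 (left) and replicate 2 (right). Lines mark the median (solid; 0 in replicate 1 and 9.11 in replicate 2) and the 95% quantile (dotted) of all protein-coding gene windows; IRF1 stands above the dotted line in replicate 1 (7.39) and IRF7 in replicate 2 (36.8).

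The 2 precipitations ordered the genes differently. IRF1 had the highest density in replicate 1, with 7.39 peaks per 100 kb, which exceeded 99.6% of all protein-coding gene windows. In replicate 2 the same gene had 11.1 per 100 kb and exceeded 58.3% of them. IRF7, which had no peak in replicate 1, came first in replicate 2 with 36.8 per 100 kb and exceeded 99.0% of the windows. The windows also hold neighbouring genes, and of these 16 peaks only 612148-613582 and 614158-616995 overlapped IRF7 itself. IRF3 followed with 25.9 and IRF5 with 20.9 per 100 kb, and neither IRF3 nor IRF9 had a peak in replicate 1. IRF2 was lowest in replicate 2 with 3.10 peaks per 100 kb, although it was second in replicate 1 with 2.33. The order of the genes by peak density is therefore that of a single precipitation in each case.

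Near start sites the counts were lower. Here a peak was taken as near if its middle lay within 1 kb of the start of any annotated transcript (TSS). Replicate 1 had such a peak at 1 of the 8 genes, IRF5 (8.45% of all protein-coding genes). Replicate 2 had one at 6, namely IRF1, IRF2, IRF3, IRF5, IRF7 and IRF9 (56.9% of all protein-coding genes). A shared interval near a TSS was found at IRF5 alone (4.38% of all protein-coding genes). IRF4 and IRF8 had no near peak in either list. At IRF8, however, a replicate 2 peak covered 3 TSSs with its middle 1573 bp from the nearest one.

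IRF3, IRF5 and IRF7 are the members that are activated in the cytoplasm by signals from pathogen sensors. IRF5, which also drives inflammatory cytokine genes in macrophages, lies on chr7:128577511-128590092. Its single replicate 1 peak, 128579125-128581877, held 200 tags, scored 170.06 (10 times the −log10 of the p-value of the peak caller) and was enriched 6.14-fold over the local background. In replicate 2 the peak 128579172-128582812 held 142 tags, scored 141.22 and was enriched 2.94-fold. By fold enrichment the 2 peaks exceeded 62.9% of the replicate 1 list and 5.2% of the replicate 2 list. The interval they share is 2706 bp long and covers 4 of the 20 annotated TSSs of IRF5. The summits lay 609 bp apart, and H3K4me3 intervals of both replicates overlapped it. The middle of the shared interval was 3.01 kb from the 5' end of the gene and 202 bp from the nearest TSS. The interval thus coincided with start sites inside the gene rather than with its outermost one. Replicate 2 had 10 further peaks in the window, with 15 to 101 tags. The one with 101 tags, 128587310-128589712, lay toward the 3' end of IRF5 and had a score of 260.12, higher than that of the shared peak. The peaks from 128597962 to 128604926 overlapped the neighbouring gene TNPO3, so not all of the 10 can be assigned to IRF5.

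IRF3 is on chr19:50162826-50169132 next to SCAF1 and overlaps BCL2L12, in a densely packed stretch. Replicate 1 had no peak in its window. Replicate 2 had 12, which covered 38.8% of the 46.3 kb. The widest, 50163673-50167284, ran over the gene body and 4 TSSs with 125 tags and a score of 351.68, the highest score of the 65 replicate 2 peaks outside the IRF8 region. The H3K4me3 interval of IRF3, 50166934-50171018 in replicate 1, covered 23 of the 26 TSSs and met this DEK peak only at its end. Of the other peaks, 1 was centred 95 bp from a TSS of BCL2L12 and 1 was centred 88 bp from a TSS of PRMT1. Only 1 of them, 50161796-50162937, overlapped IRF3, and it also overlapped SCAF1. The rest overlapped SCAF1, BCL2L12 or PRMT1 but not IRF3, so most of the 12 cannot be assigned to IRF3.

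IRF7, the regulator that amplifies type I interferon production, is the shortest member (chr11:612553-615983). It also had no peak in replicate 1, and its 16 replicate 2 peaks held 13 to 91 tags. The peak with 91 tags, 614158-616995, covered 14 of the 15 TSSs of IRF7, was centred 36 bp from one of them and overlapped H3K4me3 in both replicates. Next to it on the downstream side lay 4 consecutive peaks between 607990 and 613582 with 29, 30, 51 and 44 tags. Their fold enrichments were 6.65, 9.68, 9.48 and 9.68, and 9.68 was the highest value of the 88 replicate 2 peaks. Of these 4 peaks, 3 lay in the neighbouring gene PHRF1 and the last, 612148-613582, overlapped both PHRF1 and IRF7, so they cannot be assigned to IRF7 alone. None of them overlapped an H3K4me3 interval. Peaks farther out were centred 32 bp from a TSS of PHRF1 and 125 bp and 15 bp from TSSs of CDHR5.

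IRF9 and IRF1 take part in the response to interferon itself. IRF9 (chr14:24630443-24637252) had no peak in replicate 1 and 6 in replicate 2, with only 13 to 18 tags each, below the list median of 20. The first, 24631257-24631835, with 15 tags and a score of 75.01, was centred 62 bp from an IRF9 TSS and overlapped H3K4me3 in both replicates. The other 5 lay downstream of the gene, 4 of them nearest to TSSs of REC8 and 1 nearest to IPO4. No other member had so low a maximum of tags in replicate 2.

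IRF1, a tumour suppressor gene induced by interferon gamma, is annotated on chr5:131776132-131844411, overlapping IRF1-AS1 and the protein-coding gene ENSG00000283782, both on the opposite strand. It had 8 peaks in replicate 1, with 44 to 294 tags and scores of 63.28 to 542.74, and 12 in replicate 2, with 16 to 68 tags and scores of 53.13 to 193.63. The strongest replicate 1 peak of all 8 genes by score was here, at 131801288-131804071, where 294 tags scored 542.74 and were enriched 14.15-fold. In replicate 2 the matching peak, 131801935-131802910, held 56 tags, scored 193.63 and was enriched 5.42-fold. The 2 summits were 7 bp apart in an intron, and the middle of the shared interval was 6313 bp from the nearest IRF1 TSS. The nearest TSS of any gene was that of a Y_RNA gene, 1417 bp away. The shared interval also overlapped IRF1-AS1 and ENSG00000283782, so it cannot be assigned to IRF1 alone. Its fold enrichment exceeded that of 98.6% of the replicate 1 list and 70.6% of the replicate 2 list. It is the first sequence printed above, with 1 GAGGAA on the minus strand, and H3K4me3 intervals of both replicates overlapped it.

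The other shared interval of the IRF1 window, 131761844-131763259, lay downstream of the gene and was centred 145 bp from a TSS of LINC02863. Its peaks held 157 tags in replicate 1 and 68 in replicate 2, with fold enrichments of 5.57 and 2.50. These exceeded 49.7% of the replicate 1 list and 1.0% of the replicate 2 list. At the start sites of IRF1 the replicates differed: replicate 2 had the peak 131826080-131827844, with 55 tags, a score of 143.77 and 9 TSSs inside it, and replicate 1 had none. The H3K4me3 interval at this place, 131822950-131828458 in replicate 1, covered 18 of the 28 TSSs. Among the 8 replicate 1 peaks, 6 overlapped an H3K4me3 interval, and 2 did not, one of them the peak 131814937-131816051 with the composite element of the second printed sequence.

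IRF2, an antagonist of IRF1 at shared sites, lies on chr4:185306856-185395712. Replicate 1 had 3 peaks, with 28, 79 and 30 tags, of which none lay in the gene body. Replicate 2 had 4, with 18, 12, 17 and 31 tags, all in introns. No peak of one list overlapped a peak of the other. The main H3K4me3 interval, 185392963-185397920 in replicate 1, covered 15 of the 18 TSSs and contained no DEK peak. The replicate 2 peak counted as near a TSS was centred 480 bp from an internal start site of IRF2.

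IRF4, a factor of lymphoid and plasma cells, lies on chr6:391739-411443. It was the only member with no H3K4me3 interval in its window in either replicate. Replicate 1 had no DEK peak there, and replicate 2 had 4 peaks with 115, 25, 27 and 14 tags, all outside the gene body. The peak with 115 tags, 370689-372616, was 20087 bp from the nearest IRF4 TSS and had a fold enrichment of 3.26. The 300 bases around its summit were 80.7% identical to themselves at a shift of 36 bases, and the part of this repeat in the tag count was not tested.

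**Figure D2:**
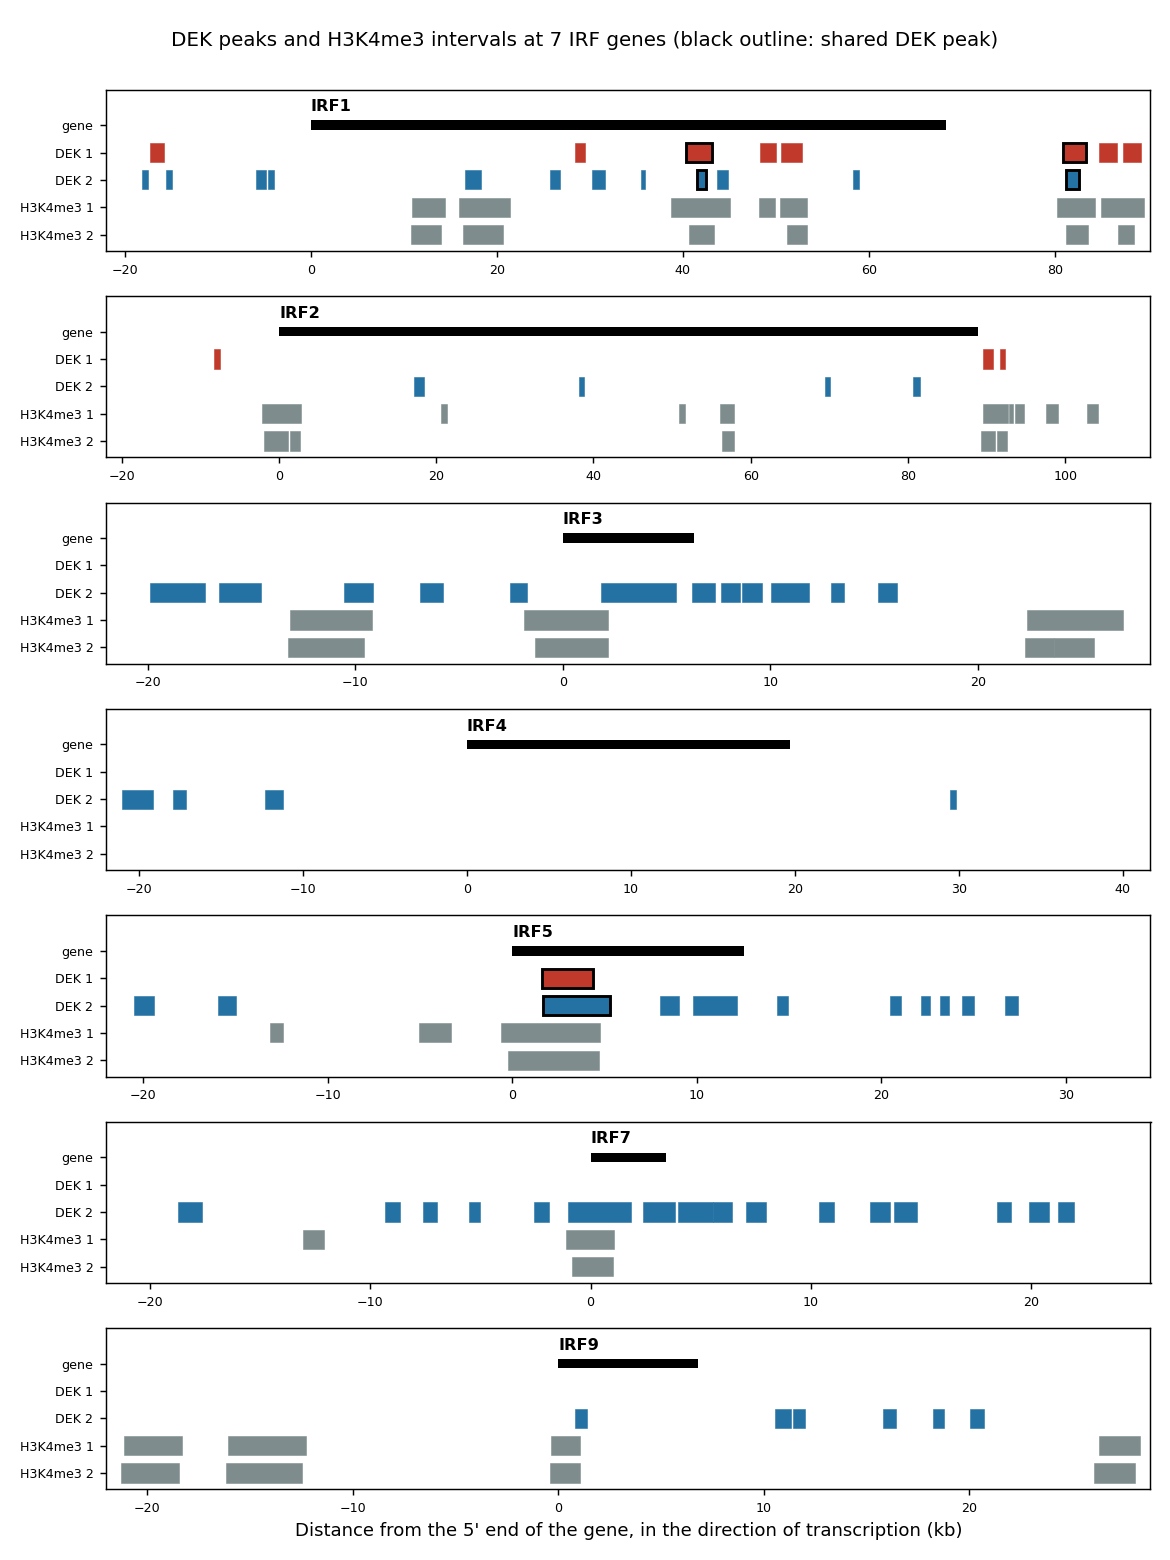
DEK peaks (red, replicate 1; blue, replicate 2) and H3K4me3 intervals (grey, both replicates) at the 7 IRF genes other than IRF8, by distance in kb from the 5' end of the gene in the direction of transcription; the black bar is the gene and a black outline marks shared peaks. Shared peaks are seen at IRF1 and IRF5 only, no replicate 1 peak is drawn for IRF3, IRF4, IRF7 or IRF9, and the row of H3K4me3 at IRF4 is empty.

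IRF8 (chr16:85932722-85956212) carried 4 of the 7 shared intervals, 4 replicate 1 peaks and 23 replicate 2 peaks. None of its shared intervals lay in the gene. Over all 200 kb bins of the genome, at least 4 shared intervals were found in 0.815% of bins, at least 4 replicate 1 peaks in 7.44% and at least 23 replicate 2 peaks in 12.6%. The 3 downstream intervals came from 2 peaks of each replicate, so the 4 intervals are not 4 separate sites.

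The upstream shared interval, 85862660-85864435, was centred 69175 bp upstream of the nearest IRF8 TSS, with no annotated gene across it and the nearest TSS of any gene, of the pseudogene ENSG00000214259, 13405 bp away. In replicate 1 its peak held 400 tags, scored 345.4 and was enriched 11.2-fold. In replicate 2 it held 161 tags, scored 612.09, the highest score of the 88 replicate 2 peaks, and was enriched 7.69-fold. The summits were 18 bp apart, while the median gap over all shared intervals was 153 bp and 10.5% of them had a gap of 18 bp or less. H3K4me3 overlapped it in replicate 1 but not in replicate 2. Among the shared sites of the IRF genes, this one and the IRF1 intron were those whose summits nearly coincided.

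The 3 downstream intervals lay beyond the 3' end of IRF8 in the lncRNA gene ENSG00000285163 (85958590-85982430). Replicate 1 had 2 peaks there. The first, 85960802-85967160, was 6359 bp wide, the widest of the 16, with 459 tags and a score of 120.49. The second, 85967869-85971304, held 305 tags with a score of 316.39 and was centred 243 bp from the TSS of LINC02132. Replicate 2 had the peaks 85960687-85961328, with 30 tags and a score of 75.58, and 85962744-85968844, with 276 tags and a score of 335.57. Fold enrichments were 7.91 and 6.84 for the replicate 1 peaks. For the replicate 2 peaks they were 3.09 and 3.18, above only 7.6% and 9.2% of the replicate 2 list. The wide replicate 2 peak bridged both replicate 1 peaks. The distances from the middle of the shared intervals to the nearest IRF8 TSS were 13416, 17303 and 20707 bp. The summits of the paired peaks were 1161, 3918 and 3831 bp apart, so the summits did not coincide here. The first of the 3 overlaps was between the wide replicate 1 peak and a replicate 2 peak of only 642 bp. H3K4me3 intervals overlapped all 3 in replicate 1 and the first and last in replicate 2.

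Within IRF8 itself, only replicate 2 had peaks, so none was shared. The study counted the IRF8 gene as not bound by DEK, and its real-time PCR showed no enrichment of IRF8 DNA. It does not give the position of that PCR product. The replicate 2 peaks in the gene were 85933489-85934391 with 39 tags, 85947294-85951151 with 173 tags and 85952661-85955065 with 97 tags. The peak nearest to the 5' end was centred 1146 bp from a TSS, just past the 1 kb limit. The peak with 173 tags covered 3 of the 17 annotated TSSs and was centred 1573 bp from the nearest one. The H3K4me3 interval of IRF8 ran from 85935233 to 85944842 in replicate 1 and from 85935767 to 85940701 in replicate 2, beginning 2.51 and 3.04 kb inside the gene. It covered 8 and 6 of the 17 annotated TSSs, and no DEK peak of either list overlapped it. Upstream of the gene, the remaining replicate 1 peak, 85886131-85888788, held 196 tags and was centred 49 bp from a TSS of the lncRNA gene ENSG00000289932. It overlapped H3K4me3 in both replicates and met no replicate 2 peak. Replicate 2 had 13 peaks upstream of IRF8, the shared one among them, with 21 to 198 tags. The one with 198 tags, 85892918-85897171, scored 305.47 and overlapped H3K4me3 in replicate 1 only.

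**Figure D3:**
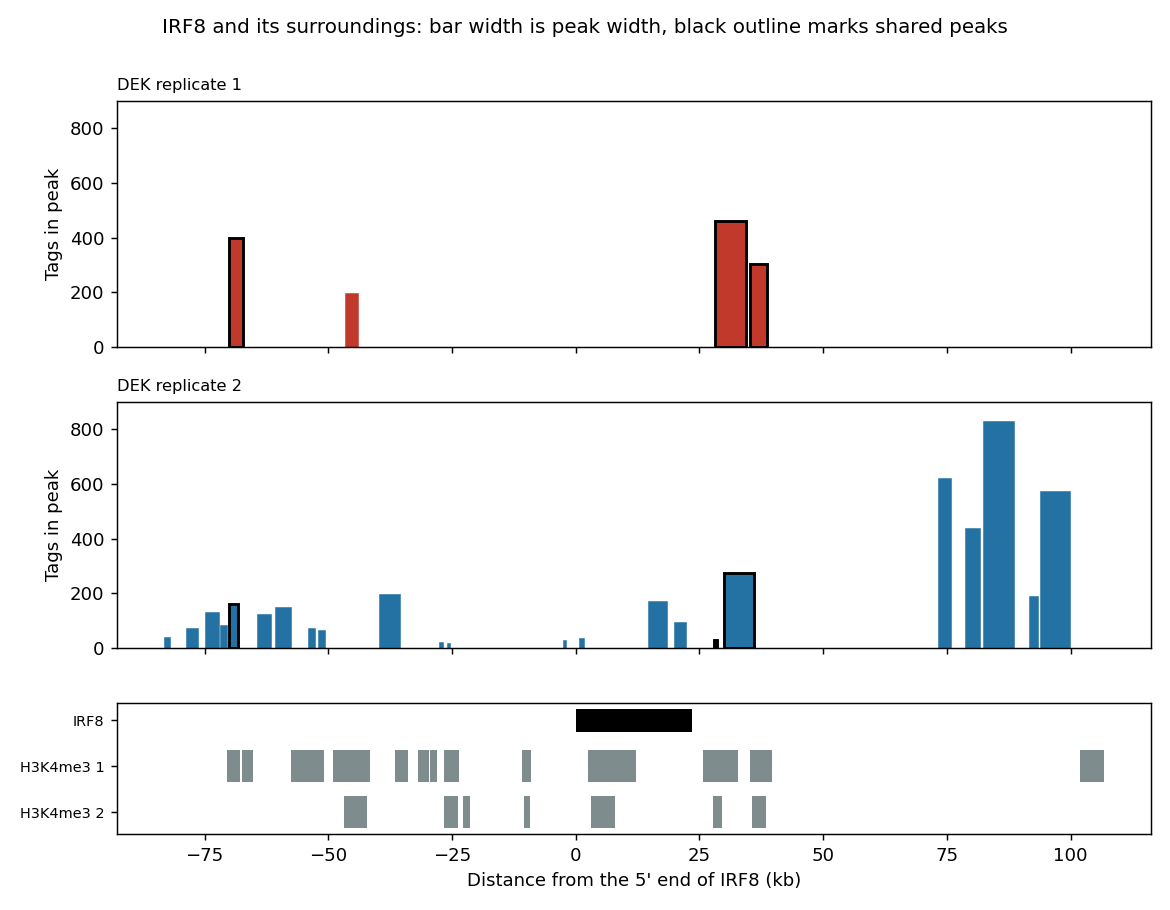
DEK peaks in the region around IRF8 by distance in kb from the 5' end of the gene, with bar height the tags in the peak and bar width the peak width, for replicate 1 (top) and replicate 2 (middle), above the gene and the H3K4me3 intervals (bottom). Outlined, shared peaks stand upstream (400 and 161 tags) and just downstream of the gene (459 and 276 tags for the widest pair), and the tallest replicate 2 bars, up to 828 tags, stand far downstream where replicate 1 has none.

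A group of 5 replicate 2 peaks lay farther downstream, from 86005872 to 86032616, and was singled out after its values were seen. They held 620, 440, 828, 192 and 575 tags, together 2655 over 26.7 kb, and each exceeded at least 99.6% of the replicate 2 list by tags. Their fold enrichments were low, between 2.03 and 3.40. Of all replicate 2 peaks, 585 (0.383%) had at least 192 tags, and their median fold enrichment was 4.41. None of the 5 overlapped a replicate 1 peak or an H3K4me3 interval. The 300 bases around the summit of the first of them were a tandem repeat with a unit of 63 bases, 99.6% identical to themselves at that shift. In capitals is the first copy.
IRF8 far downstream, replicate 2 alone, chr16:86006482-86006781: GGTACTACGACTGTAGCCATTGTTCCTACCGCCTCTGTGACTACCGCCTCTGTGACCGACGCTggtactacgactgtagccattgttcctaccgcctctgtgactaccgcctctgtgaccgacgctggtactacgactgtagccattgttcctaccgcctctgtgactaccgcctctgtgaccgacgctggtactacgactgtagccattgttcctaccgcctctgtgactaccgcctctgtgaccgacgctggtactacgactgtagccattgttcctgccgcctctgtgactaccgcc
Windows that repeat in this way (at least 90% identity at a shift of 10 to 150 bases) made up 0.253% of the replicate 2 list and 0.355% of the replicate 1 list. The summit windows of the other peaks of the group had at most 32.4% to 36.5% identity at any such shift. The part of the repeat in the tag counts was not tested. Without these 5 peaks the highest tag count of a replicate 2 peak in the region was 276.

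The peaks of the IRF genes were larger than most of their lists. In replicate 1 the 16 peaks had a median width of 2131 bp (list median 1016) and a median of 124.5 tags (list median 47). In replicate 2 the 88 peaks had a median width of 975 bp (697) and 29 tags (20). The width was above the list median in 14 of 16 and in 64 of 88 peaks. Median fold enrichment was 5.61 against 5.57 in replicate 1 and 4.30 against 4.58 in replicate 2, and both differences turned without the IRF8 region, to 5.10 and 5.33. The IRF8 region alone had medians of 8.28 in replicate 1 and 3.09 in replicate 2. The IRF8 region contributed the widest peaks, and without it the medians were 1824 bp in replicate 1 and 902 bp in replicate 2. Of the member peaks, 6 of 16 (37.5%) in replicate 1 and 6 of 88 (6.82%) in replicate 2 belonged to a shared interval, where the whole lists had 27.4% and 2.90%. Without the IRF8 region it was 3 of 12 peaks in replicate 1, a share below that of the list, and 3 of 65 (4.62%) in replicate 2.

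**Figure D4:**
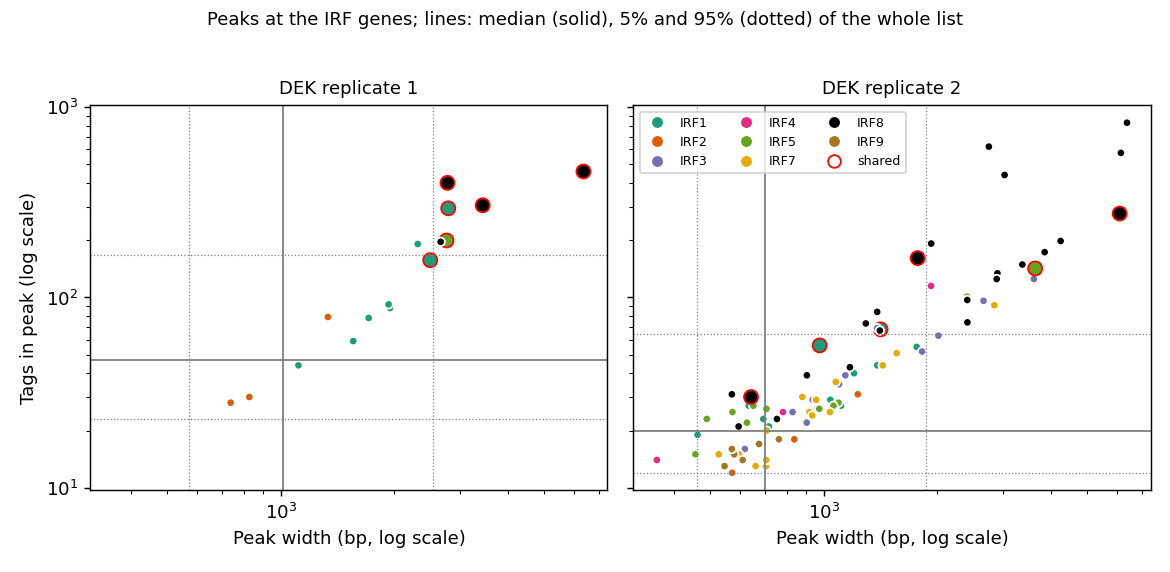
Width (bp) and tags of every DEK peak at the IRF genes, both on log scales, for replicate 1 (left) and replicate 2 (right), coloured by gene, with larger red-ringed points for shared peaks. Solid lines are the medians of the whole list (1016 bp and 47 tags; 697 bp and 20 tags) and dotted lines its 5% and 95% quantiles; the shared peaks lie mostly in the upper right, and the 5 far downstream IRF8 peaks lie above the others of their width.

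H3K4me3 was the readout that the choice of genes did not use. An H3K4me3 interval of either replicate covered a TSS in 7 of the 8 genes, all but IRF4, as it did in 59.2% of all protein-coding genes. Of the replicate 1 DEK peaks at the IRF genes, 13 of 16 (81.2%) overlapped H3K4me3 replicate 1 and 10 (62.5%) overlapped replicate 2, while 50.2% and 34.0% of the whole list did. Of the replicate 2 DEK peaks, 18 of 88 (20.5%) and 11 (12.5%) did, while the whole list had 10.7% and 8.05%. All 7 shared intervals overlapped H3K4me3 replicate 1 and 5 overlapped replicate 2, while 49.9% and 34.1% of all shared intervals did. Wider peaks meet more intervals, and the part of peak width in these shares was not tested. Of the 13 replicate 1 peaks, that of IRF5 was near a TSS of its IRF gene. Another 5 were centred within 1 kb of a TSS of a lncRNA gene, at 605 bp for IRF1-AS1, 83 bp for LINC02863, 100 bp for LINC02362, 49 bp for ENSG00000289932 and 243 bp for LINC02132.

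**Figure D5:**
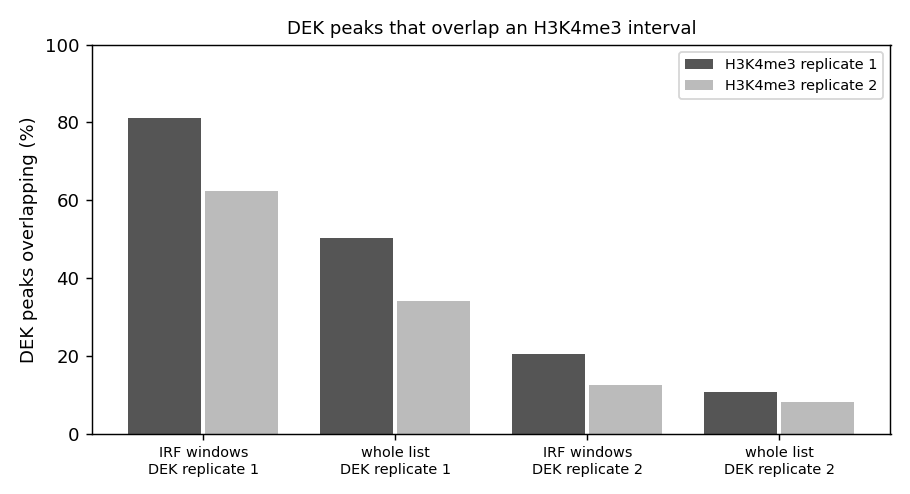
Share of DEK peaks (%) that overlapped an H3K4me3 interval of replicate 1 (dark bars) or replicate 2 (light bars), for the peaks at the IRF genes and for the whole list of each DEK replicate. The bars of the IRF genes, 81.2% and 62.5% for DEK replicate 1 and 20.5% and 12.5% for DEK replicate 2, stand above those of the whole lists.

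Motifs were counted in the 300 bases around each summit, on both strands, where matches of different motifs may share bases. GAGGAA was found in 9 of the 16 replicate 1 windows (34.0% of the whole list) and in 17 of the 88 replicate 2 windows (14.2%). Of the replicate 1 matches, 5 were at IRF1, 3 at IRF8 and 1 at IRF2. The composite element was found in 2 of 16 (4.15% of the list), at IRF1 and IRF5, and in 4 of 88 (1.17%), at IRF2, IRF3, IRF4 and IRF8. The interferon response element, GAAA and after any 2 bases GAAA again, was in 0 of 16 (4.61%) and in 2 of 88 (2.39%), both at IRF8. The STAT element TTCNNNGAA was in 0 of 16 (6.85%) and 3 of 88 (3.70%), and the SP1 box GGGCGG in 0 of 16 (11.9%) and 22 of 88 (22.7%). Over whole peaks GAGGAA was in 15 of 16 and 51 of 88 peaks (64.4% and 39.6% of the lists), and the composite element in 5 and 11 (12.6% and 5.16%). A match says that the letters are in the window, and no factor was measured there.

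The wider pathway was described with 50 genes in 5 lists of IRF partners, cofactors, receptors and kinases, activators of IRF proteins and response genes. A replicate 1 peak was near a TSS of 12 (24.0%, against 8.45% of all protein-coding genes). A replicate 2 peak was near a TSS of 28 (56.0%, against 56.9%), and a shared interval near a TSS of 7 (14.0%, against 4.38%). H3K4me3 covered a TSS in 47 of the 50 genes in replicate 1 and in 45 in replicate 2. Of all protein-coding genes, 59.2% had this in either replicate. The part of H3K4me3 in the DEK shares was not tested. Among the 9 partners, IKZF1, a lymphoid and myeloid zinc finger factor, had a shared interval with 98 tags in replicate 1 and 35 in replicate 2, and SPI1, the gene of PU.1, had none near its TSSs. Of the 6 cofactors, IRF2BP2, a corepressor of IRF2, had 2 shared intervals, which lay within the same replicate 1 peak of 82 tags. None of the 7 receptors and kinases had one. The kinases that phosphorylate IRF3 and IRF7 both did, TBK1 with 27 and 18 tags and IKBKE with 38 and 43. Of the 16 response genes ISG15, a ubiquitin-like protein, had one with 82 and 100 tags, and B2M, the light chain of MHC class I, one with 44 tags in each list and an overlap of only 44 bp. Scores at the genes named here ran from 51.09 at TBK1 to 212.09 at IKZF1, both in replicate 1.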

How the data were processed

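ChIP-seq was performed on U937 cells, and the peak lists of 2 DEK and 2 H3K4me3 precipitations were analysed. The non-precipitated chromatin, which served the authors as the control for peak calling, was not analysed here. Reads of 100 bp were aligned by the authors with Bowtie2 to hg19, and MACS 1.4.1 with its defaults called the peaks of every sample on its own. The deposited count of tags per peak is not normalized. The score that the authors deposited is 10 times the −log10 of the MACS p-value. The deposited fold enrichment is a ratio over the local background, and the false discovery rate was deposited as a percent. The H3K4me3 files give positions only, and their filter is not given in the sources used here.

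The 2 DEK lists were intersected (at least 1 bp) and placed on GENCODE 44 (GRCh37), which need not be the annotation of the authors. Distances run from the middle of a peak to the nearest TSS. All 8 genes are named with their peaks or the range of their peaks. Pathway genes are named where a shared interval lay within 1 kb of a TSS. In the IRF8 region, genes are named that a shared interval or a replicate 1 peak overlapped or was nearest to. The values of 1 pathway gene are not reported here. Members and lists were chosen with earlier results of these data known, so none is independent support. Background shares are counts over all genes, peaks or 200 kb bins. Python 3.11.15, NumPy 2.4.6, pandas 2.3.3, pysam 0.24.0, samtools 1.23.1 and Matplotlib 3.10.9 were used, and the overlap and distance steps were tested on simulated data. Alternatives were other windows, distances, TSS sets, overlaps, a score of at least 100, each replicate alone and whole peaks for motifs.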

Additional observations from a re-analysis of the deposited data

How the results depend on the processing

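Of 43 alternatives over 12 results, 26 left the count within 1.5 times of that reported and 17 moved it. The 3 genes with a shared interval were IRF1, IRF5 and IRF8. Leaving out a DEK replicate gave 4 to 8 genes, and 50 kb on each side gave 4. The settings of gene body alone, 5 kb and 50 kb also replaced the longer IRF8 region, which left out its upstream shared interval. The 7 shared intervals became 2 with the gene body alone, 3 with 5 kb on each side, 4 with an overlap of at least 50% of both peaks, and 16 to 88 peaks when a replicate was left out. The 1 gene with a shared interval near a TSS, IRF5, became 0 with the 5' end of the gene alone and 1 to 6 when a replicate was left out. The 4 shared intervals around IRF8 became 2 with the 50% overlap and 4 to 23 peaks when a replicate was left out. The 18 replicate 2 peaks at H3K4me3 became 11 to 18 when an H3K4me3 replicate was left out, and the 7 pathway genes became 12 to 28 when a DEK replicate was. Over whole peaks GAGGAA rose from 9 to 15 peaks in replicate 1 and from 17 to 51 in replicate 2, and the ETS-IRF composite element from 2 to 5 and from 4 to 11. No paired analysis was possible because the results come from no test. The depth of each library was not used here beyond the tags in peaks, and with 2 precipitations of unequal list length a missing replicate 1 peak cannot be told apart from one below its calling limit.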
